A study of Mus musculus with 4 samples.

Results

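The genes described here are 69 predicted genes that were almost silent in wild-type mouse embryonic stem cells and were counted in cells of the same line targeted at Ssrp1. They were chosen from the 30612 symbols of the count table that have the form Gm plus a number or end in Rik, out of 55353 symbols in all. A member had at most 2 raw counts summed over both control libraries and at least 10 raw counts in each of the libraries labelled knockout. In all, 73 symbols met these limits, and the members are those left after 9 symbols, not all of which met them, were set aside by name. All 4 libraries were used in the choice, so the difference between the groups is what made a gene a member. It is given below as a description and was not tested.

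Symbols of this form are placeholders for gene models and cDNA clones that have no other name. Many belong to pseudogenes. A processed pseudogene is a copy of a spliced mRNA that was reverse transcribed and inserted elsewhere in the genome, and an unprocessed pseudogene is a duplicate that kept its gene structure. Cultures of mouse embryonic stem cells hold rare cells that resemble the early cleavage embryo and are known for Zscan4, Usp17l, Tdpoz and Tcstv transcripts and for transcripts that begin in long terminal repeats of the retrovirus-like MERVL elements.

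The cells were E14 mouse embryonic stem cells, a line whose strain is labelled 12910la, grown in serum with LIF on gelatin. The control group was 2 libraries of wild-type genotype, and the other group was 2 libraries of the genotype labelled Ssrp1 KO, made with Cas9 and a guide RNA. The sources used here do not say whether the targeted cells were 1 clone or several. The protocol text also describes puromycin selection of a vector used for a Usp7 knockdown, and it does not say which libraries that applies to. SSRP1 forms the FACT complex with SUPT16, and this complex loosens and rebuilds nucleosomes around moving polymerases. The count of Ssrp1 itself was 6224 and 7486 in the controls against 7140 and 7787 in the other group, a log2 fold change of 0.11 ± 0.06 (SE; edgeR adjusted p = 0.23). The targeted gene's counts overlap between the groups and go against a loss of its RNA. A count over the whole gene does not show whether its coding sequence was changed, and the libraries are called by their labels throughout.

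Total counts per library lay between 22611434 and 25344190. Of 17482 genes that passed a filter on low counts, 16.5% were called higher and 17.2% lower in the libraries labelled knockout (edgeR quasi-likelihood test, adjusted p under 0.05). Of the 3679 Gm and Rik symbols among them, 11.6% were called higher and 7.07% lower, and nothing is read from these shares about the members, which the same contrast chose. Among marker lists, all 23 tested genes of a list for the 2-cell-like state were called higher, with a median log2 fold change of 6.96 against 0.00 over all genes tested. Except for Dppa3, these 23 had at most 10 counts over both controls and passed the filter through the libraries in which they are high, so this count and median are largely set by the filter. Another 11 listed genes were not tested, among them Chit1 with 5, 4, 4 and 3 counts. The summed level of that list's 34 genes was 3.72 and 4 CPM, the usual measure of counts relative to library size, here after TMM scaling, in the controls and 141 and 149 CPM in the libraries labelled knockout, while AA792892 and BC061212 stayed at 0 in all 4. Its smallest adjusted p-values belonged to Zscan4c, Usp17le and Zscan4a. The pluripotent list, led by Fgf4, Tfcp2l1 and Dppa5a, summed to 4861 and 4924 CPM in the controls and 3775 and 3683 CPM in the other group, with 7 of 10 genes lower and 2 higher. Of the primitive endoderm list 5 of 6 tested genes were higher, led by Dab2, Gata4 and Gata6, and of the germ-line list 7 of 9 were higher and 1 lower, led by Tuba3a, Hormad1 and Dazl. None of the 3 tested genes of the 6 in the trophoblast list was called, with Krt8 and Eomes (log2 fold change 0.42 ± 0.17, SE; edgeR adjusted p = 0.06) the most abundant. In the fibroblast list Pdgfrb was lower, and in the neural list Sox1 was lower. Of the Y-linked list 3 of 7 tested genes were higher and 3 lower, the latter being Ddx3y, Uty and Eif2s3y, which were counted in all 4 libraries. The part of any of these lists in the members' values was not tested. In bulk RNA, more cells of a kind and more RNA per cell cannot be told apart.

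Together the members held 10 and 17 control counts, against 2710 and 2588 counts in the libraries labelled knockout. On the CPM scale these sums were 0.453 and 0.694 CPM in the controls, against 116 and 109 CPM in the other group. In the controls 47 members had no count at all, 17 had 1 count and 5 had 2 counts. In the libraries labelled knockout the median member had 24 and 23 counts, and the highest had 200 and 175. The set is thus made of low-level transcripts, with a median of 1.04 CPM and a range of 0.424 to 7.96 CPM for the mean over both libraries. Its 15 most abundant members held 55.5% of that summed level. Of the 69, 66 passed the low-count filter, and they passed it through the libraries in which they are high.

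**Figure D1:**
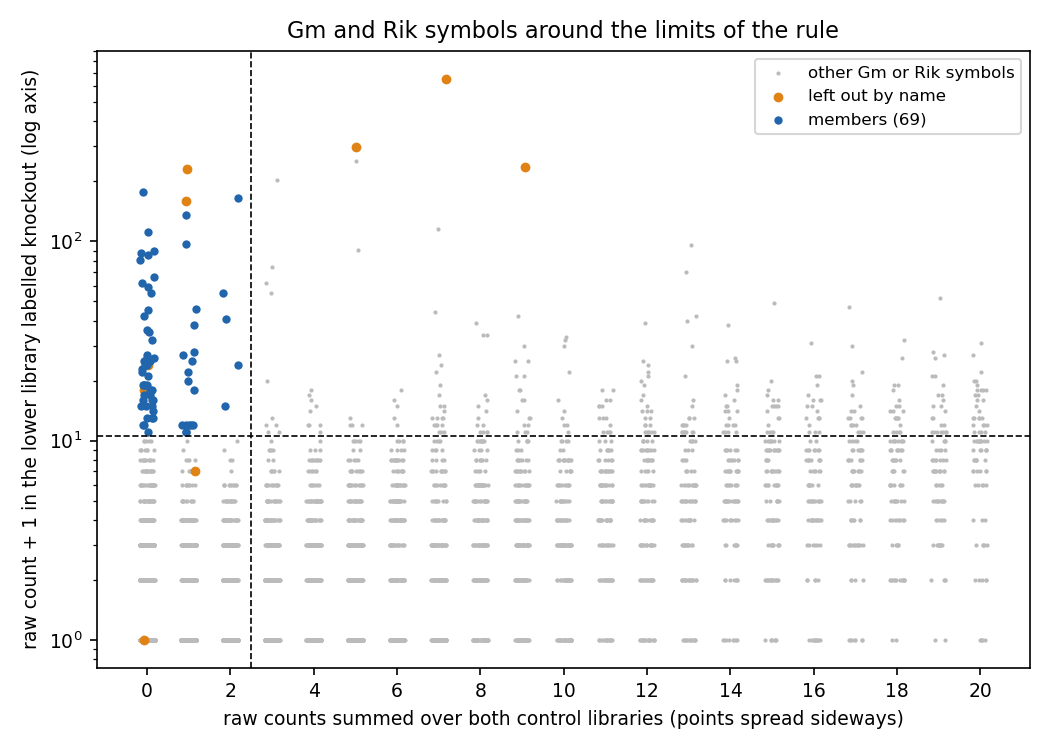
Each point is a Gm or Rik symbol with at most 20 counts over both controls. The horizontal axis gives the raw counts summed over both controls, the vertical axis the raw count plus 1 in the lower of the libraries labelled knockout (log axis), and the dashed lines mark the limits of the rule. The 69 members fill the upper left corner and run down to the line at 10 counts without a gap.

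The limits cut through a continuous range of values. Members just inside were Gm48762, with 10 and 10 counts in the libraries labelled knockout, Gm17767, with 12 and 10, and Gm46658, with 16 and 10. Gm12724, Gm5989, Gm34059, Gm21818 and Gm8332 had 2 control counts each. Just outside were 10 symbols with 3 control counts. The most abundant of them were Gm16478 (2, 1, 203 and 239 counts in control 1, control 2, knockout 1 and knockout 2), Gm12800 (3, 0, 77 and 73), Gm2027 (0, 3, 61 and 84) and Gm18983 (0, 3, 54 and 95). The others were Gm572, 0610033M10Rik, Gm5608, Gm23143, Gm48265 and Gm24741, with 10 to 20 counts in each library labelled knockout. A further 7 symbols missed the other limit with 9 counts in their lower library: 3830417A13Rik, Gm9113, Gm12682, Gm43391, Gm43959, Gm2099 and Gm16137. The mirrored limits, at most 2 counts over the libraries labelled knockout and at least 10 in each control, were met by 3 Gm or Rik symbols. These were 4930412C18Rik (10, 24, 0 and 2 counts), Gm38804 (13, 15, 0 and 0) and Gm47863 (14, 12, 0 and 2). Among symbols of any other form, 62 met the limits used for the members and 5 met the mirrored limits.

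Of the members, 65 were placed on the mm10 build by the GENCODE M21 annotation, 2 had a record in RefSeq alone and 2, Gm50180 and Gm46658, matched no record. By type they were 20 processed pseudogenes, 7 unprocessed pseudogenes (1 of them annotated as transcribed), 12 protein-coding genes, 24 long noncoding RNAs of several kinds and 2 miRNA genes. Processed pseudogenes made up 30.8% of the placed members and 29.5% of all 29196 placed Gm and Rik symbols, but 15.4% of the 3537 that passed the low-count filter. Protein-coding models made up 18.5% of the members, against 6.58% of all placed symbols and 12% of those that passed. Chromosome 12 held 12 members, or 18.5%, against 5.01% of all placed Gm and Rik symbols and 6.14% of those that passed. No member lay on the Y chromosome. Members share sequence and position, as described below, so these shares do not come from independent genes. Per kilobase of exon, the mean level in the libraries labelled knockout ran from 0.117 CPM for Gm17767 to 17.0 CPM for Gm8332, with a median of 1.11 CPM.

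**Figure D2:**
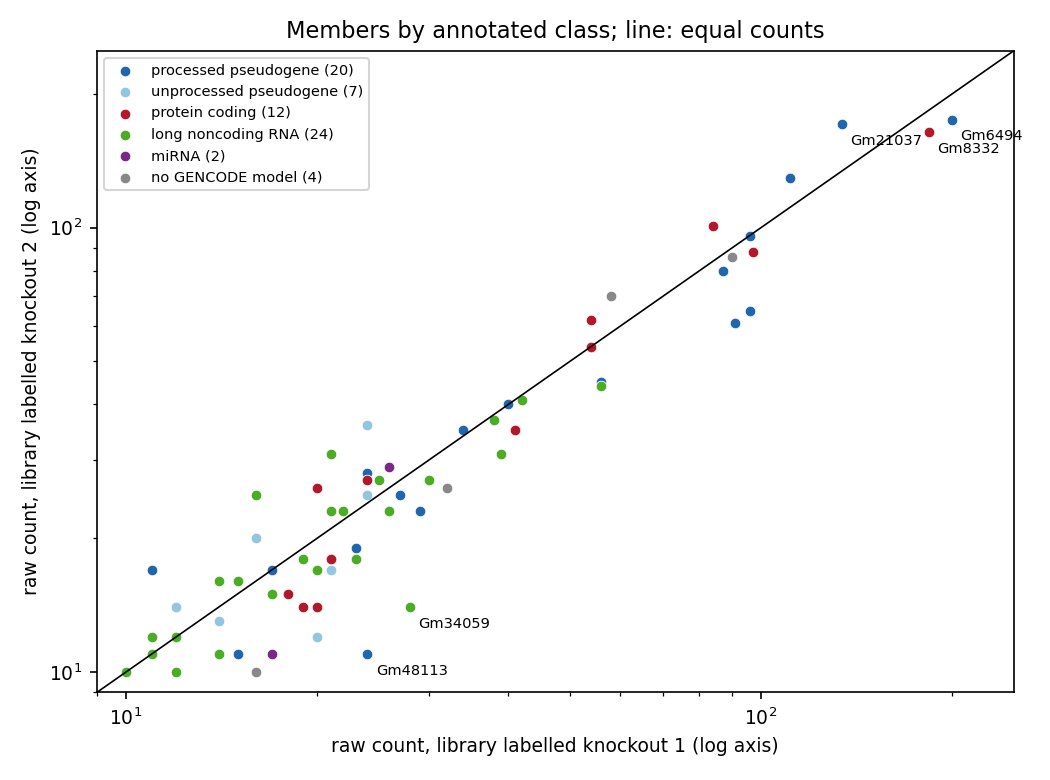
Each point is a member, with its raw count in library knockout 1 on the horizontal axis and in library knockout 2 on the vertical axis, both log axes, coloured by annotated class. Points lie close to the line of equal counts, and the upper end is held by processed pseudogenes and by the protein-coding model Gm8332.

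The class with the highest summed counts was the processed pseudogenes, copies of ordinary mRNAs. The median member of this class, at 1.28 CPM, was not above that of the protein-coding models, at 1.35 CPM. Their 20 members held 8 control counts in all, against 1162 and 1089 counts in the libraries labelled knockout. For 14 of them described here, an aligned transcript of a named protein-coding gene covered at least 80% of the copy at 80% identity or more, and these copies resembled 11 named genes. The named genes were counted in every library, from 358 to 7439 counts in a control, and their log2 fold changes between the groups ran from -0.65 to 0.29 with a median of 0.17. Of the 11, 5 were called higher, 1 lower and 5 not at all. Among these 14 copies no control library held more than 2 counts, as the rule requires. Copies of the same genes outside the members can have more, such as Gm8038, described below.

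**Figure D3:**
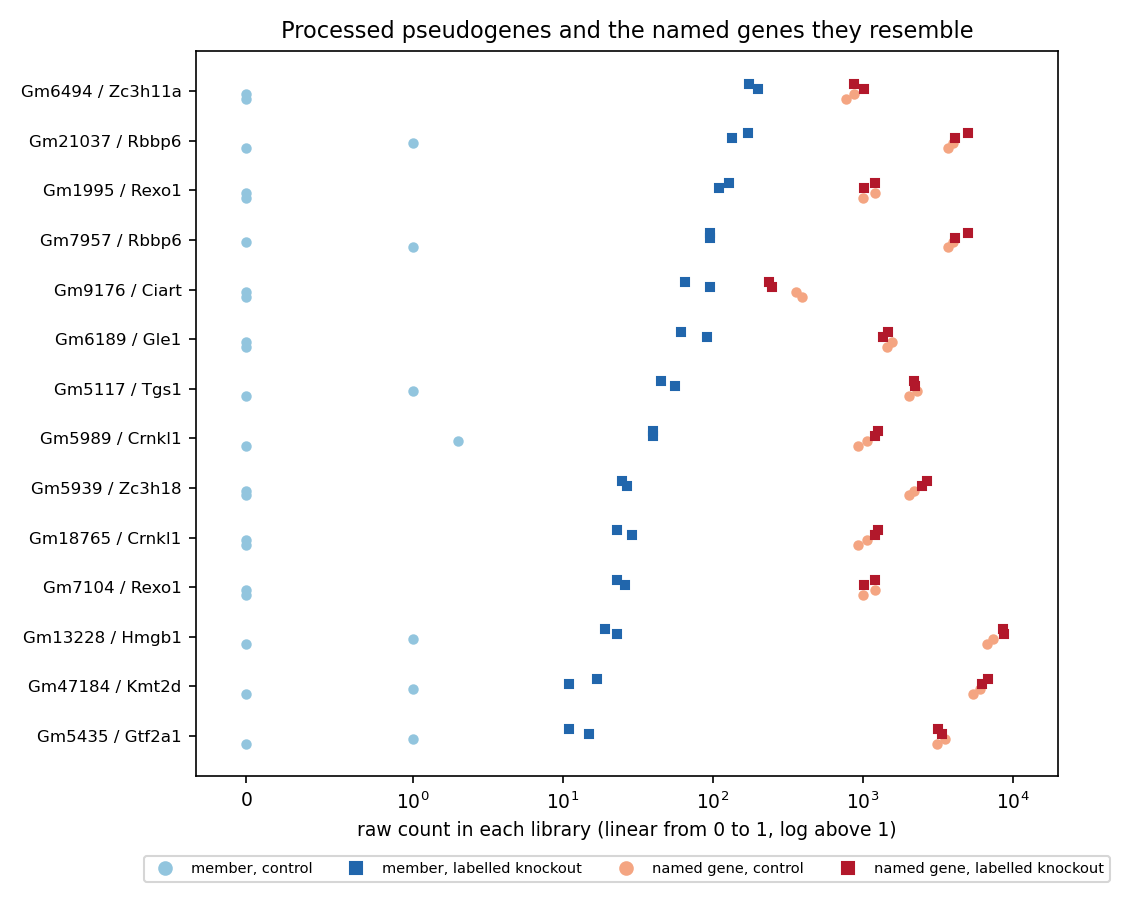
Each row is a processed pseudogene and the named gene it resembles, with the raw count of both in all 4 libraries (linear from 0 to 1 and log above 1). The named genes' points from both groups lie close together. The copies, by the rule that chose them, lie apart, at 0 to 2 counts in the controls and at 11 to 200 counts in the libraries labelled knockout.

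Gm6494, at chr10:58757270-58759567, was the most abundant member. It had no control count, and 200 and 175 counts in the libraries labelled knockout, or 7.96 ± 0.85 CPM (SD, n = 2). Against a floor of 3 counts over the controls this is at least 123-fold higher. Over its 2298 bases it aligned at 85.3% identity to Zc3h11a, a zinc-finger protein gene linked to mRNA export, which had 769, 877, 1016 and 874 counts (log2 fold change 0.18 ± 0.10, SE; edgeR adjusted p = 0.15). The protein-coding model Gm38394 aligned to Gm6494 over the same length at the same identity, and had 6527, 7371, 7280 and 7414 counts. In the controls Zc3h11a and Gm38394 were well counted while Gm6494 was at 0.

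Copies of Rbbp6, which encodes a ubiquitin ligase that also takes part in mRNA 3′ processing, came next. Gm21037, at chr7:51152817-51155424, had 0, 1, 134 and 171 counts, a ratio of 301 with a 95% counting interval of 53.6 to 11925. Gm7957, at chr7:83411977-83414578, had 1, 0, 96 and 96 counts. Each was 1 count or less in a control and near 100 or above in the libraries labelled knockout. That the groups do not overlap follows from the rule. Rbbp6 itself had 3690, 4024, 4160 and 5038 counts. The copies align to it at 85.6% and 89.1%. Of 7 other annotated copies of this gene that share these limits of likeness, 6 (Gm21032 to Gm21036 and Gm9343) were at 0 in all 4 libraries. How reads with several matches were treated is not stated, so these 0 counts do not show that the copies were silent. The remaining copy was Gm16478, the symbol just outside the rule with 3 control counts, 15093 bases from Gm21037 and 97.1% identical to it.

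Rexo1, which encodes an RNA exonuclease that binds a transcription elongation factor, had 2 copies among the members, and both lie on chromosome 12. Gm1995, at chr12:87861366-87863967, had 0, 0, 111 and 129 counts, and Gm7104, at chr12:88284538-88287069, had 0, 0, 26 and 23. They are 97.5% identical to each other and 87.2% and 86.7% identical to Rexo1, whose counts were 1010, 1206, 1024 and 1203 (log2 fold change -0.01 ± 0.09, SE; edgeR adjusted p = 0.94). Copies so alike can take reads from each other, and the sources used here do not state how reads with several matches were treated.

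Gm5989 and Gm18765 resemble Crnkl1, which encodes a spliceosome protein. Their counts were 0, 2, 40 and 40 for Gm5989 and 0, 0, 29 and 23 for Gm18765. Crnkl1 had 936, 1072, 1215 and 1265 counts. Other copies of Crnkl1 were less clear-cut: Gm8038 had 9, 21, 92 and 91 counts, Gm4782 had 2, 5, 26 and 28, and Gm5301, which is 99.7% identical to Gm5989, had 0, 3, 2 and 1. Near-identical copies of this gene therefore carried quite different counts in the same libraries.

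The other copies of named genes had no member of the same kind. Gm9176 (0, 0, 96 and 65 counts) resembles Ciart, a circadian repressor gene. Ciart fell, from 394 and 358 counts to 250 and 237 (log2 fold change -0.65 ± 0.14, SE; edgeR adjusted p = 0.0011), while its copy went from 0 to the counts given above. Gm9176 lies 389 bases from Rpl41 on the same strand, a ribosomal protein gene with 8773 to 11032 counts. Gm6189 (0, 0, 91 and 61) resembles Gle1, an mRNA export factor gene, and Gm5117 (0, 1, 56 and 45) resembles Tgs1, which hypermethylates the caps of small RNAs. Lower counts were found for Gm5939, a copy of Zc3h18 (0, 0, 27 and 25), Gm13228, a copy of Hmgb1 (0, 1, 23 and 19), Gm47184, a copy of a stretch of Kmt2d (0, 1, 11 and 17), and Gm5435, a copy of Gtf2a1 (0, 1, 15 and 11). Gm47184 is 99.6% identical to Kmt2d, which had 5469 to 6882 counts, so that assignment between the copy and the gene is least certain there. Gm4971 had 0, 0, 87 and 80 counts, and Gm12617 had 0, 0, 21 and 18. The 4 processed pseudogenes with no named gene at these limits were Gm38153, Gm21542, Gm48113 and Gm19368.

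The protein-coding members were led by intron-less copies of Eif1a, a translation initiation factor gene. There were 5 copies of 435 bases, and all lie between 87494721 and 88250100 on chromosome 12. Gm8332 had 1, 1, 184 and 164 counts, Gm2035 had 0, 0, 97 and 88, and Gm5788 had 0, 0, 41 and 35. Gm2075 had 0, 0, 21 and 18 counts, and Gm6803 had 0, 0, 20 and 14. The 213-base unprocessed pseudogene Gm48388 of the same family had 0, 0, 12 and 14. Gm8332 was the most abundant member per kilobase. Eif1a itself had 4190, 4769, 5988 and 5381 counts, a log2 fold change of 0.33 ± 0.07 (SE; edgeR adjusted p = 0.00093).

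The opening 120 bases of 3 of the copies are shown because they limit how far counts can be assigned to one copy. The capitals mark a run of 57 bases that is the same in all 5 members:
Gm8332: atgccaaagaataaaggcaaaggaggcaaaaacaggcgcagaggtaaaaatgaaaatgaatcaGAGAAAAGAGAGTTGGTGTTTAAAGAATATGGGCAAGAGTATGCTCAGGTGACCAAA
Gm2075: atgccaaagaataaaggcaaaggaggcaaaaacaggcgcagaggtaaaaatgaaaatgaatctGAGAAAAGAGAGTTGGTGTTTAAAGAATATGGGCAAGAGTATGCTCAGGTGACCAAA
Gm6803: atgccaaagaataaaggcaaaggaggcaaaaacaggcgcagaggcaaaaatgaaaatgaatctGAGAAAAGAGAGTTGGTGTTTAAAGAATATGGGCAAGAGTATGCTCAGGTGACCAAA

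Over all 435 bases the 5 members differ from each other at 5 to 15 positions. A read from the stretch in capitals has the same letters in each of them. The other copies of the family showed a wide range of counts. Gm5039, which was not a member, had 1, 4, 294 and 251 counts, Gm2056 had 0, 0, 14 and 5, Gm16368 had 0, 0, 9 and 2, and Gm21936 had 0, 0, 1 and 0. Values of single copies are uncertain for this reason. No copy of the family on the list of members had more than 1 count in a control, but the rule allows few. Of the copies just named, Gm5039 had up to 4 in a control, while Gm2056, Gm16368 and Gm21936 had 0.

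Other protein-coding members belong to families known from the early embryo and the germ line. Gm12794 (0, 0, 84 and 101 counts), at chr4:101940407-101943183, and B020004J07Rik (1, 0, 24 and 27), about 100 kb away, are 81.0% identical and of the Pramel type. The nearest relative of Gm12794 is Gm12800, 96.6% identical, with 3, 0, 77 and 73 counts. Gm13119 (0, 0, 54 and 54), at chr4:144357942-144364419, has 4 annotated near-copies: 3 of them, Gm13040, Gm13043 and Gm13057, had 0 counts in all libraries, and BC080695 had 0, 0, 3 and 11. Among copies so alike, 0 counts do not show that a copy was silent. Gm5773 (0, 0, 20 and 26) is 98.0% identical to Tdpoz2, which had 0, 0, 2 and 7, and the pseudogene Gm5541 (0, 0, 24 and 36) is 97.3% identical to Tdpoz4, which had 0, 0, 21 and 20. Gm21818 (2, 0, 54 and 62) is of the Tcstv family, which is named for transcripts of the cleavage-stage embryo, and is 95.7% identical to Tcstv1 (0, 0, 3 and 1 counts) and 93.4% identical to Tcstv3 (0, 0, 19 and 12). 1700013H16Rik (0, 0, 18 and 15) had no annotated gene alike. Tdpoz2, Tdpoz4, Tcstv3 and Tcstv1 were in the marker list above, so these members and that list share sequence families.

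Gm21293 (0, 0, 19 and 14 counts), a protein-coding model at chr10:104142987-104153674, illustrates how copies with the same letters were counted. One of its transcripts is 100% identical to transcripts of Gm20765, Gm21304, Gm21312 and Gm8764, which all had 0 counts in all 4 libraries. Gm6763, also 100% identical and at 0 in all 4, partly overlaps Gm21293 on the same strand. These models share positions, so Gm6763 is not a separate copy. Gm4340, 99% identical, had 0, 0, 23 and 26 counts. The split of reads among such copies is uncertain, and the count of 0 at the identical copies is no sign that they were silent.

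Of the 7 unprocessed pseudogenes, 5 resemble named genes that were themselves near silent in the controls, the Tdpoz4 relative Gm5541 among them. Gm11543 (0, 0, 14 and 13 counts), Gm11545 (0, 0, 20 and 12) and Gm11546 (0, 0, 21 and 17) lie within 100 kb of each other on chromosome 11 and resemble Tmem92 at 88.9%, 83.8% and 81.3%. Tmem92, which encodes a membrane protein and is a marker of the 2-cell-like state, lies in the same stretch and rose from 2 and 1 counts to 77 and 109 (log2 fold change 5.82 ± 0.54, SE; edgeR adjusted p = 6.8e-08). Their relative AA623943 had 0, 0, 45 and 63. Gm16026 (0, 0, 16 and 20) has a transcript 97.6% identical to Sp110, a nuclear body protein gene with 1, 1, 42 and 40 counts. Gm45551 (0, 0, 24 and 25) lies 34743 bases from Zscan4-ps2. No unprocessed pseudogene among the members had a control count, which held for 47 of the 69 members in all. The rule allows few control counts in any member.

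The 24 long noncoding members were lower than the other classes on the per-kilobase scale, with a median of 0.559 CPM per kilobase against 1.48 for the processed pseudogenes and 1.78 for the protein-coding models. Many of them begin alike. With a transcript of B020004J07Rik as the query, 17 members had a transcript that aligned to its start over at least 100 bases at 90% identity or more, with both alignments beginning in the opening 40 bases. They are 14 long noncoding members, the protein-coding models B020004J07Rik and Gm21293 and the pseudogene Gm16026. The opening 110 bases of 6 of them are shown because this start is what all 17 have in common. Some of the 17 are also alike beyond it, as described below. The capitals mark a run of 25 bases that is the same in all 17:
B020004J07Rik: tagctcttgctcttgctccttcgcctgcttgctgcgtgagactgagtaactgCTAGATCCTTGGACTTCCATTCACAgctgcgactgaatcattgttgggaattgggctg
Gm12724: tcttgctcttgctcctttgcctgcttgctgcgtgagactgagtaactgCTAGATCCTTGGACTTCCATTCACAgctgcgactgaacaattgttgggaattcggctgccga
Gm16026: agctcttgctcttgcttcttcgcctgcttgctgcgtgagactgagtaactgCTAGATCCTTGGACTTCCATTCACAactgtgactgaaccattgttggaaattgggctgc
Gm28940: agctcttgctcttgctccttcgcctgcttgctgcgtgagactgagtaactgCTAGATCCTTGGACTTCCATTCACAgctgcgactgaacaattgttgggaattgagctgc
Gm35974: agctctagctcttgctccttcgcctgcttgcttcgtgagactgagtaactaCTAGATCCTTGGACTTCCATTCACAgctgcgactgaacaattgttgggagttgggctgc
Gm48754: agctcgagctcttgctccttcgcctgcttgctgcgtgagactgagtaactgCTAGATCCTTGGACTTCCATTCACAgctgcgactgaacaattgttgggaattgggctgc

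The other 11 members with this start were Gm14742, Gm21293, Gm33248, Gm33466, Gm38258, Gm43678, Gm44736, Gm47404, Gm48492, Gm48799 and Gm48829. The 17 lie on 8 chromosomes. No repeat annotation was used here, and whether the stretch belongs to a MERVL element was not tested. Counts of the 17 in the libraries labelled knockout ran from 11 and 11 for Gm33248 to 56 and 44 for Gm48754, and in the controls none had more than 2. Gm28940 had 0, 1, 30 and 27 counts, Gm14742 had 0, 0, 25 and 27, and Gm35974 had 0, 0, 22 and 23.

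The same start was found in 60 annotated genes outside the members and the symbols set aside by name, of which 56 had a row in the count table. Predicted symbols that met the limits of the rule are missing from these by construction. Of the 56, 34 had at most 2 control counts and 20 could be tested. Of those 20, 7 were called higher and 2 lower, with a median log2 fold change of 0.24, against 16.5% and 17.2% of all genes tested. Limch1, which encodes an actomyosin regulator, rose from 17 and 33 to 90 and 98 counts (log2 fold change 1.89 ± 0.32, SE; edgeR adjusted p = 0.00011). Aqr, a splicing helicase gene with 5053, 5998, 6757 and 6907 counts, was higher by 0.29 ± 0.06, and Tbc1d23, a vesicle-trafficking gene, fell by 0.37. Counts per gene do not say which transcript of a gene was read. These 3 genes were named after their values were seen.

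**Figure D4:**
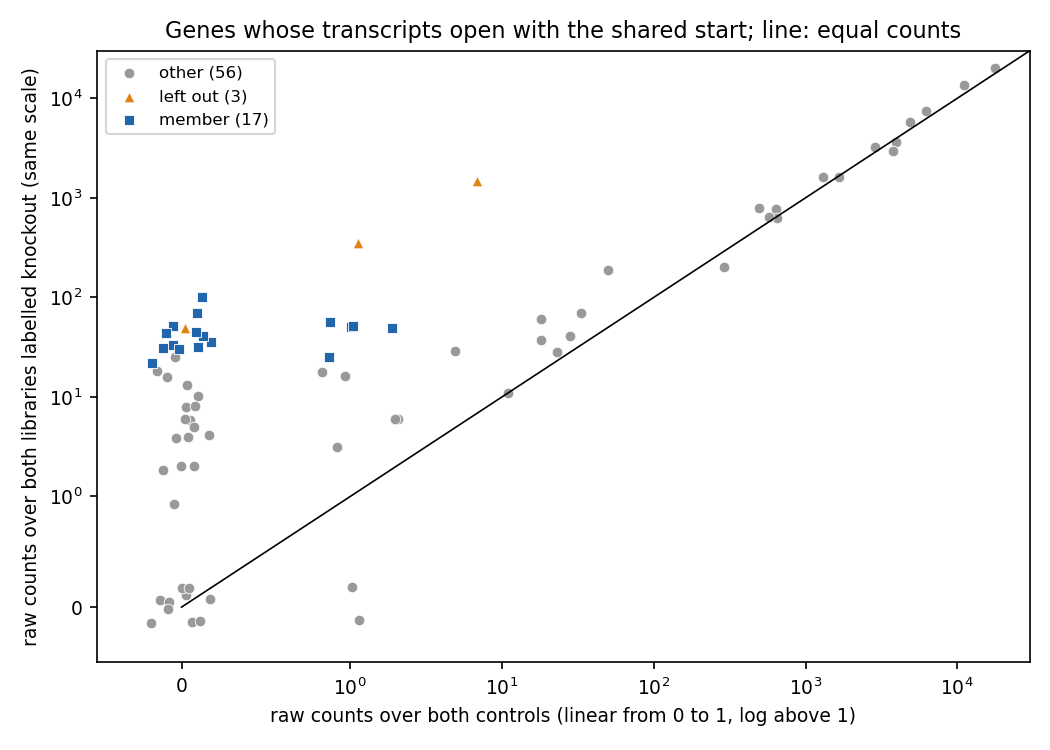
Each point is a gene with a transcript that opens with the shared start, with raw counts over both controls on the horizontal axis and over both libraries labelled knockout on the vertical axis, both linear from 0 to 1 and log above 1. The 17 members and the 3 symbols set aside by name lie high at the left, 1 of the latter at 7 control counts. Other genes with at most 2 control counts lie between 0 and 25 counts, overlapping the lowest members, which have 22 and 25, and the well-counted ones lie near the line of equal counts; points are spread a little so that they do not cover each other.

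Of these transcripts, 5 are long near-copies of each other on chromosome 13. Gm47404, Gm48492 and Gm48829 have 2705 bases of exon and Gm48754 and Gm48799 have 3661, and the shorter of each pair aligned over its whole length at 98.7% to 99.1% identity. Their counts were 0, 0, 39 and 31 for Gm47404, 0, 0, 21 and 23 for Gm48492, and 1, 0, 14 and 11 for Gm48829. Gm48754 had 0, 0, 56 and 44, and Gm48799 had 0, 0, 15 and 16. The 5 members are close to 1 sequence, so their agreement is not that of independent genes and the value of each is uncertain. Near-copies that the rule did not keep lie on this chromosome and on others. Gm47486, on chromosome 13 and 98.7% identical to Gm47404, had 0, 0, 2 and 2 counts. Gm49015, on chromosome 14 and 99.7% identical to Gm48492, had 0, 1, 0 and 0 counts. On chromosome 12, Gm48422 had 0, 0, 2 and 0, Gm48764 had 0, 0, 10 and 6, and Gm47357 had 1, 0, 6 and 10. Gm43549 (0, 0, 16 and 25) and Gm48362 (1, 0, 11 and 12) form a similar pair at 98.8% identity. Also alike to Gm43549 are Gm47939 (99.5%), which had no count in any library, and Gm42047 (99.1%), which had 0, 0, 1 and 0. Gm44739 (0, 0, 42 and 41) and the processed pseudogene Gm48113 align at 95.8%, and both also resemble Gm44660, which had 9, 24, 38 and 31 counts.

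Promoter windows from RefSeq (250 bases before to 50 after a start, GRCm38.p6, the assembly of the mm10 build) were at hand for 13 members. GATTNAATC, letters contained in the published binding sequence of the mouse factor Dux, reads the same on both strands. It was found in the windows of 4 members, Gm12724, Gm21293, Gm33248 and Gm35974, and in 88 of all 32851 windows (0.268%). The letters began 143, 146, 156 and 143 bases before the start in the same order. The windows align to one another at 92.9% to 95.6%, so the 4 matches come from copies of 1 sequence. The 250 bases before the start of 3 of them are shown, on the strand of the gene, because of the likeness between them; the capitals mark GATTNAATC. The windows lie at chr4:106236872-106237121 for Gm12724, chr7:129667175-129667424 for Gm33248 and chr16:3468210-3468459 for Gm35974:
Gm12724: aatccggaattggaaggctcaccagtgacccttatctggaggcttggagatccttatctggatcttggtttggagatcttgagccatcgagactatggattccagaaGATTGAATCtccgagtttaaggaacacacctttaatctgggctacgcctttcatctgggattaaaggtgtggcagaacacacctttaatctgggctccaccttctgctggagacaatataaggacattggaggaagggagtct
Gm33248: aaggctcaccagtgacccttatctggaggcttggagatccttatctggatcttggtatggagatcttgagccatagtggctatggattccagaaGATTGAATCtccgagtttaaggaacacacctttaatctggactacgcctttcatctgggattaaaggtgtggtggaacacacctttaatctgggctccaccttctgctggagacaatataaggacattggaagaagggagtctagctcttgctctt
Gm35974: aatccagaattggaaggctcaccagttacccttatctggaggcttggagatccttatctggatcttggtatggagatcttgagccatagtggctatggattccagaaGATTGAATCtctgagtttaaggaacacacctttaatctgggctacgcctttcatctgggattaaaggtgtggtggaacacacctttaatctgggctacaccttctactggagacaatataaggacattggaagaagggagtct

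The last 13 bases of the Gm33248 window are the letters that open the shared start of Gm28940, a gene on another chromosome. The Gm33248 window ends at 129667424, inside that gene's GENCODE model, which begins at 129667405 and has a transcript with the shared start. The window of Gm35974 ends 1 base before its GENCODE transcript, which opens with the shared start, at 3468460. The window of Gm12724 does not adjoin the GENCODE transcript that carries the shared start, which begins at 106241216. Of 53 other genes with GATTNAATC in a window and a row in the table, 20 were tested, and 5 were called higher and 7 lower, against 16.5% and 17.2% of all genes tested, with a median log2 fold change of 0.04 against 0.00. The 5 were AF067061 (0, 0, 19 and 26 counts), Eif4a3l1 (1, 1, 262 and 216), Arih2, Echdc2 and Sgk1, and the 7 included Hydin, a ciliary gene, which fell by 1.49. AF067061 and Eif4a3l1 passed the low-count filter through the libraries in which they are high, so their direction is largely set by the filter. A copy of the whole window is also found in genes that were not counted: Gm20765, Gm21304, Gm21312 and Gm8764 share the window of Gm21293 at 100% and had 0 counts in all libraries, with the limits on identical copies given above. Pemt, whose window aligns to that of Gm21293 at 96.6% over 297 bases, had 28, 48, 41 and 39 counts. Its log2 fold change was 0.06 ± 0.36 (SE, edgeR adjusted p = 0.91). Sgk1 and Eif4a3l1 align to the same window at 83.7% and 80.7% and were called higher. TATAAA, searched on both strands, was found in the window of 1 member, Gm6803, and in 13.6% of all windows. A match is a description of these letters and no measure of binding.

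Members lay in 8 groups in which each was within 100 kb of the next, 21 members in all. The largest group held 5 members on chromosome 12, Gm1995, Gm2035, Gm48388, Gm2075 and Gm6803, a mixture of Rexo1 and Eif1a copies. Gm8332 and Gm7104, again an Eif1a and a Rexo1 copy, formed another. Gm44736 (0, 0, 14 and 16 counts), Gm44739 and Gm4971 lie in a row on the same strand of chromosome 7, from 73670299 to 73686601. Gm38153 (0, 0, 34 and 35), a processed pseudogene, lies within the gene body of Gm38258 (0, 1, 21 and 31) on the same strand, and Gm48754 and Gm48799 lie near each other on chromosome 13. The remaining groups are the Tmem92-like trio, the pair Gm12794 and B020004J07Rik, and the miRNA genes Gm22635 and Gm24342. In each group all members were near 0 in both controls, as the rule requires.

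The miRNA genes lie within the body of Sfmbt2, on its strand. This gene encodes a Polycomb-group protein and hosts a large miRNA cluster in the mouse. Gm22635, at chr2:10492421-10492546, had 0, 1, 26 and 29 counts, and Gm24342, at chr2:10509584-10509687, had 1, 0, 17 and 11. Sfmbt2 rose from 1719 and 2250 counts to 6936 and 7624, a log2 fold change of 1.86 ± 0.08 (SE; edgeR adjusted p = 4.4e-13). Sfmbt2 was thus higher in the libraries labelled knockout, as the miRNA genes were by the rule. Gm22635 has 25 annotated genes alike. Of these, Gm25680 (100% identical) had no count, Gm26431 (98.4%) had 1, 0, 0 and 1, and Gm25701 (98.4%) had 16, 30, 145 and 160. The split of reads among such copies is uncertain, so the control counts of Gm22635 are no sign that its sequence was silent there. The libraries were made from total RNA, so whether reads at these positions came from the host's RNA or from another transcript was not tested. No RefSeq mature miRNA matched either gene's sequence.

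Overlap with another annotated gene was found for 16 members, and 9 of them overlapped a protein-coding gene body, 4 on the same strand and 5 on the opposite one. Gm47404 lies inside Chrm3, a muscarinic receptor gene, on the same strand. Chrm3 had 0, 0, 13 and 13 counts against 0, 0, 39 and 31 for the member. Gm28940 lies inside Rhbdd1 on the opposite strand. Rhbdd1, a rhomboid protease gene, fell from 485 and 512 counts to 256 and 291 (log2 fold change -0.89 ± 0.12, SE; edgeR adjusted p = 1.3e-05), while the member's counts were 0, 1, 30 and 27. Gm48113 (0, 0, 24 and 11) lies inside Mblac2 on the opposite strand, and Mblac2 fell from 71 and 85 counts to 38 and 42 (log2 fold change -0.98 ± 0.29, SE; edgeR adjusted p = 0.011). Gm48754 lies opposite Rala, a small GTPase gene with 626, 774, 797 and 831 counts (log2 fold change 0.20 ± 0.10, SE; edgeR adjusted p = 0.11). A530040E14Rik (0, 1, 38 and 37) and Gm16026 lie opposite C130026I21Rik, which had 0, 0, 2 and 3. The libraries are described as strand-specific, but the sources used here do not give the strand setting of the counting, so reads of overlapping genes may have been shared.

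Genes next to the members were compared as a measure that the rule did not use. For each of the 65 placed members the nearest tested protein-coding gene was taken that was neither a member nor 1 of the 9 symbols set aside by name, which gave 53 distinct neighbours at a median distance of 43602 bases. Of these, 19 were called higher (35.8%) and 10 lower (18.9%), against 17.9% and 19.8% of all 13487 protein-coding genes tested, and their median log2 fold change was 0.14 against -0.01. The neighbours were then split by their control counts, a split chosen after values were seen. In 8 of them both controls together held at most 10 counts, and all 8 were called higher, with log2 fold changes above 5. A gene with so few control counts passes the low-count filter mainly through the libraries labelled knockout, so the direction of these 8 is largely set by the filter and the split. Among the other 45 neighbours, 11 were higher (24.4%) and 10 lower (22.2%), and their median log2 fold change was -0.05. When the set-aside symbols were allowed, 10 members had another neighbour, 6 set-aside genes entered and there were 55 neighbours at a median distance of 31667 bases. Of these 23 were called higher (41.8%) and 9 lower (16.4%).

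The 8 neighbours with few control counts were Gm5039, Tmem92, Zscan4-ps2, Gm12800, Sp110, AF067061, Tdpoz4 and Chrm3. Gm5039, the neighbour of 6 members of the chromosome 12 groups, rose by 6.68 ± 0.35 (log2, SE; edgeR adjusted p = 2e-11). Zscan4-ps2, a pseudogene-named relative of the Zscan4 genes, had 7, 0, 152 and 120 counts. Except for Chrm3 they are relatives of members or of the genes in the marker list of the 2-cell-like state. For these genes, likeness in sequence and closeness in position cannot be told apart.

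Other neighbours moved in both directions. Gm13128, next to Gm13119, rose from 27 and 15 to 227 and 206 counts (log2 fold change 3.33 ± 0.27, SE; edgeR adjusted p = 9.6e-09). Sfmbt2 rose as given above. Aass, a lysine-degradation gene 24999 bases from Gm5989, fell from 420 and 505 to 151 and 137 counts (log2 fold change -1.70 ± 0.14, SE; edgeR adjusted p = 1.5e-08). Cul3 and Snw1, next to Gm6189 and Gm5788, had log2 fold changes of 0.04 and 0.05 and did not pass the threshold. The set-aside copies Gm8300, Gm2016, Gm2022 and Gm5662 lie closer to the chromosome 12 members than these neighbours do: Gm8300 is 19161 bases from Gm5788, and Gm5662 is 10038 bases from Gm7104. The neighbours of the abundant copies Gm6494, Gm21037 and Gm7957 were Sh3rf3, Fancf and Tmc3, with log2 fold changes of -0.13, -0.94 and -0.30. Of these Fancf, 705153 bases from Gm21037, passed the threshold (edgeR adjusted p = 0.045). Cul3, Snw1, Sh3rf3, Fancf and Tmc3 were named after their values were seen.

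**Figure D5:**
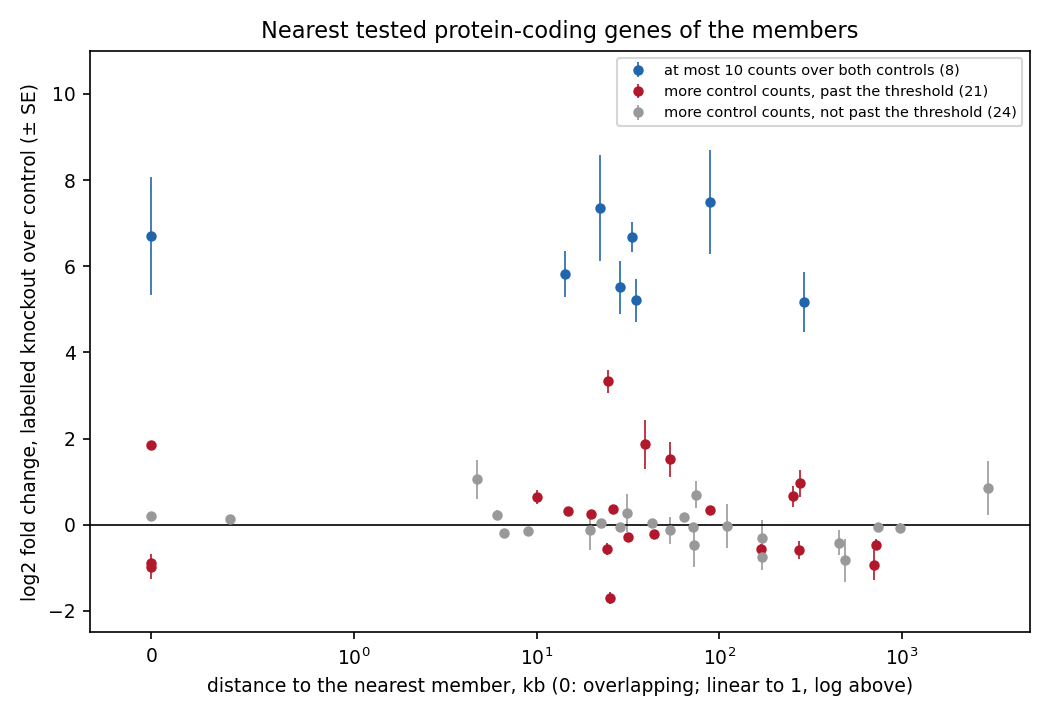
Each point is 1 of the 53 neighbours, with its distance to the nearest member on the horizontal axis (0 for overlap, linear to 1 kb and log above) and its log2 fold change on the vertical axis, with bars of 1 SE. The 8 neighbours with at most 10 control counts lie above 5, and the other 45 lie on both sides of 0.

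The members were next compared between the libraries labelled knockout. Library 1 was higher than library 2 for 46 members and lower for 23 on the CPM scale, with a median ratio of 1.10 and a range of 0.652 to 2.22. For 60 of 69 the fold between the libraries was at most 1.5. The rule asked for at least 10 counts in each of these libraries and so left out genes counted in 1 of them alone, which limits how far they could differ. The members that differed most were Gm48113, with 24 and 11 counts, Gm34059 (28 and 14), Gm11545 (20 and 12), Gm46658 (16 and 10) and Gm24342 (17 and 11), all with at most 28 counts. No label states that replicates are separate cultures, so this spread, and the p-values given above, may reflect technical variation alone. Of the other members with no position in GENCODE, Gm50180 had 0, 0, 90 and 86 counts, Gm4840 had 0, 0, 58 and 70, and Gm36718 had 0, 0, 32 and 26.

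The remaining members are noncoding transcripts and pseudogenes without a named relative, at 11 to 28 counts in each library labelled knockout. Gm33466 had 0, 0, 23 and 18 counts, Gm43678 had 0, 0, 17 and 15, and Gm35019 had 1, 0, 20 and 17. Gm34059, the longest of the noncoding members at 5711 bases of exon, had 0, 2, 28 and 14, which is 0.156 CPM per kilobase. Gm21542 had 0, 0, 24 and 28 counts, Gm19368 had 0, 0, 17 and 17, Gm49187 had 0, 0, 19 and 18, and Gm42653 had 0, 0, 12 and 12. In each of them the lowest library labelled knockout was well above the highest control, by the rule that chose them.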

How the data were processed

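RNA of 4 libraries of E14 mouse embryonic stem cells, 2 wild-type controls and 2 labelled Ssrp1 knockout, was measured. The values used are whole-number counts per gene symbol, deposited by the authors without normalization; cutadapt, HISAT2, featureCounts and the mm10 build are named in the submitters' processing notes. The sources used here do not give their versions, the annotation, the strand setting or the treatment of reads with several matches. The table's columns carry OK where titles carry KO, and 0 columns were left unmapped.

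Total counts per library of 22611434 to 25344190 make 3 counts, the floor used for folds against no counts, equal to 0.123 to 0.136 CPM. Ratios against 1 or 2 control counts carry exact (Clopper-Pearson) 95% intervals. Both cover counting error only. Reads left from ribosomal RNA, counted at Gm26917 and Gm42418, took 9.72% and 10.3% of the control counts and 6.30% and 4.64% of the others, and their part in the values was not tested.

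Members and lists were chosen with earlier results of these data known. For genes that are no members, edgeR 4.0.16 in R 4.3.3 was used: filterByExpr (minimum count 10, total 15), TMM scaling, the quasi-likelihood test with 2 residual degrees of freedom, prior count 0.125 and Benjamini-Hochberg adjustment over 17482 genes. On simulated data it recovered 36, 43, 50 and 50 of 50 genes changed 1.5, 2, 4 and 8-fold, with 18 false calls. DESeq2 1.42.0 was an alternative. The control pair gave a chi-square of 3.37 per degree of freedom and the other pair 11.5, both above sampling noise.

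Gene positions and transcripts came from GENCODE M21, on the same build; a symbol with several GENCODE genes was given no position. Transcripts were aligned with blastn 2.17.0, with an 80% cover and 80% identity limit for likeness; the likeness of 2 processed pseudogenes is not reported here. Promoter windows came from RefSeq. Named were Ssrp1, the 15 most abundant members, all protein-coding or clustered members, members overlapping a coding gene, those at a limit of the rule or just outside it, the 5 that differed most between the libraries labelled knockout, the 10 called neighbours of smallest adjusted p, and up to 3 genes per marker list; others were chosen after their values were seen.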

Additional observations from a re-analysis of the deposited data

How the results depend on the processing

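The number of members depended on the limits. It was 162 with at least 5 counts in each library labelled knockout, 38 with at least 20, 47 with no control count allowed, 94 with up to 5 control counts and 64 with limits on scaled CPM. Leaving out 1 library gave 86 to 108, the highest without knockout replicate 1. Genes called higher and lower numbered 2877 and 3000, and 3887 and 2215 when scaled by library size alone. Leaving out 1 library gave 1915 to 2995 higher, the lowest without control replicate 1, and 2105 to 3244 lower. DESeq2 called 2225 higher and 2198 lower. Neighbours called higher numbered 19, and 10 of 29 when only genes at 5 CPM or more in 2 libraries were tested. Neighbours called lower numbered 10, and 6 of 38 when limited to 100 kb. With the set-aside genes taken as neighbours, an alternative chosen after seeing the data, 23 of 55 were higher and 9 lower. In the other settings both stayed within 1.5 times these numbers. The replicate numbers are only a number in the labels, and same-numbered libraries deviated with a correlation of 0.0078. A fit with a replicate block gave 3072 higher and 3216 lower genes and 19 higher and 12 lower neighbours. Where a group was left with 1 library, it was assumed to vary like the other group. A planned description of repeat masking before the starts was not run, since no genome sequence was used here. At 10 to 30 counts per library, a member's level is known only roughly, and values of near-identical copies depend on how reads with several matches were treated.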
